A study of Mus musculus with 2 samples.

Results

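The genes described here are those of the cytosolic ribosomal proteins, measured in leukocytes of the mouse liver. They were chosen by symbol (Rpl or Rps followed by a number, with its paralog suffixes, and Rplp0, Rplp1, Rplp2 and Rpsa, but not the Rps6k kinases). A gene had to have a level of at least 20 CPM in either library, CPM being its UMIs scaled to a common library total and a UMI the tag that marks 1 captured RNA molecule. Of the 31053 genes listed, 84 matched the symbols and 81 passed the floor, which comprised 32 of the small subunit, 46 of the large subunit and 3 of the P-stalk. No difference between the groups was used to choose them. The lowest gene inside the floor was Rpl7l1, at 59.7 CPM in the RES library and 50.5 CPM in the Ctrl library. The 3 outside it were Rpl3l (9.14 CPM in RES and 5.64 in Ctrl), Rpl39l (1.14 in RES and 0.785 in Ctrl) and Rpl10l, with no UMI in either library.

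The cytosolic ribosome is built from ribosomal RNA and a fixed set of proteins, with the small subunit decoding the mRNA and the large subunit forming peptide bonds. The P-stalk of the large subunit recruits the factors that drive elongation. Transcripts of ribosomal protein genes usually begin with a C followed by a run of pyrimidines, the 5′ terminal oligopyrimidine (TOP) tract, through which the growth kinase mTORC1 and the RNA-binding protein Larp1 set their translation. In blood and liver leukocytes these transcripts are among the most abundant, and lymphocytes are known to devote a large share of their mRNA to them.

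The study set mice whose liver fibrosis had resolved (RES) against uninjured controls (Ctrl), all of the C57BL/6 strain. How fibrosis was caused and the ages of the mice are not given in the sources used here. In each group liver mononuclear cells of 5 mice were pooled before CD45+ CD11b+ cells were sorted, and 1 droplet library was made per group, so the library and the group cannot be told apart and no difference between them carries a test. The intervals given below cover counting error at the 95% level and nothing else.

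The RES library held 34119806 UMIs in 4278 barcodes, of which 4011 were kept as cells, and the Ctrl library held 20379164 UMIs in 3691 barcodes, of which 3337 were kept. Kept cells had a median of 6357 UMIs in RES and 4510 in Ctrl. The libraries shared 56 barcode sequences. Ptprc, which encodes CD45, was seen in 97.9% of RES cells and 98.1% of Ctrl cells, and Itgam, which encodes CD11b, in 74.5% of RES cells and 55.0% of Ctrl cells. Cells were put into classes by marker gates, and in 7 classes (NK cells, classical and nonclassical monocytes, macrophages, cDC1 and cDC2 dendritic cells, and B cells) between 8 and 10 of the 10 markers were at least 2-fold above the other cells in both libraries. These markers also set the gates, so the count does not test the classes. Of the 7 classes, cDC1 had the fewest cells with Itgam, at 18.2% in RES and 5.88% in Ctrl. B cells were next, at 40.2% in RES and 35.05% in Ctrl. The gates left 11.1% of RES cells and 10.6% of Ctrl cells without a class.

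Over all kept cells, ribosomal protein genes took 22.2% of the UMIs in RES and 23.9% in Ctrl, a difference of -1.72 percentage points with an interval of -1.75 to -1.70. The median over single cells was 21.0% in RES and 22.0% in Ctrl. The cells between the 10th and the 90th percentile spanned 14.5% to 28.0% in RES and 15.1% to 30.1% in Ctrl. Values over all kept cells mix the classes, and the class proportions differed between the libraries. NK cells were 37.0% of kept cells in RES and 47.3% in Ctrl, and macrophages 8.88% in RES and 3.45% in Ctrl. The part of this mix in the differences over all kept cells was not tested. Among the members, levels over all kept cells ran from Rpl7l1 (60.8 CPM in RES and 50.9 in Ctrl) to Rps24 (5910 CPM in RES and 6566 in Ctrl), with a median of 2705 CPM in RES and 2830 in Ctrl. Of the 81 members, 73 were at or above 1000 CPM in each library.

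The share differed more between classes than between libraries. In RES the order was B cells at 27.7%, cDC2 at 26.6%, cDC1 at 25.5%, NK cells at 22.8%, classical monocytes at 22.4%, macrophages at 20.4% and nonclassical monocytes at 18.3%. In Ctrl it was B cells at 29.97%, cDC2 at 28.8%, cDC1 at 28.5%, classical monocytes at 23.2%, NK cells at 22.1%, nonclassical monocytes at 20.7% and macrophages at 20.5%. The highest class was 1.52 times the lowest in RES and 1.46 times in Ctrl. B cells and both dendritic cell classes were the upper 3 in both libraries, and the neighbours that changed places, NK cells with classical monocytes and macrophages with nonclassical monocytes, were next to each other in both orders. T cells, gated by the same rule but with 48 RES and 40 Ctrl cells, had 31.7% in RES and 30.2% in Ctrl.

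**Figure D1:**
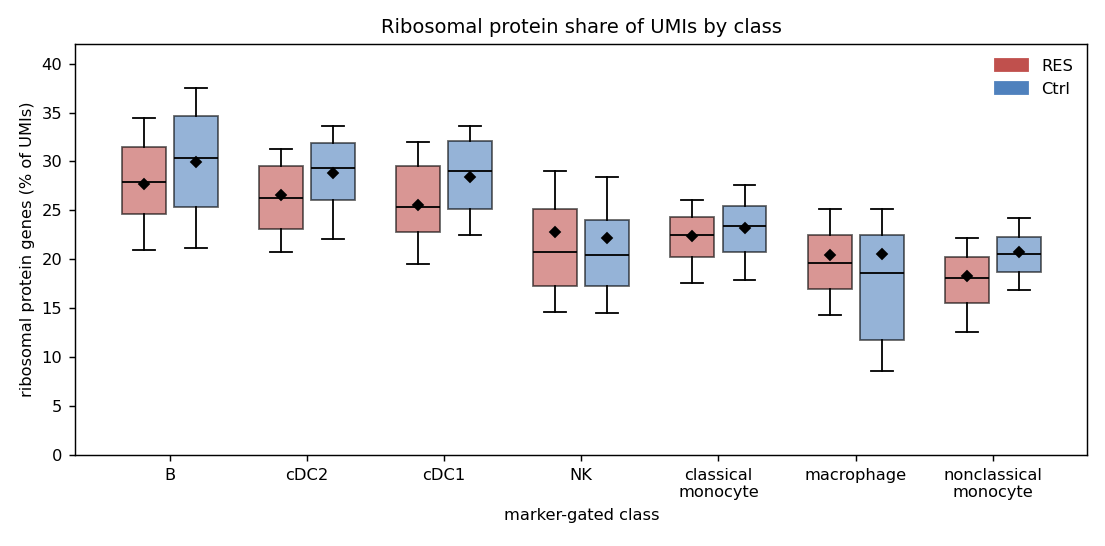
Ribosomal protein genes as percent of UMIs per cell (vertical axis) in 7 marker-gated classes (horizontal axis), RES left and Ctrl right in each pair. Boxes span the quartiles with the median as a line, whiskers reach the outermost cells inside the 10th to 90th percentile, and diamonds give the share of the summed UMIs, from 27.7% in RES and 29.97% in Ctrl in B cells to 18.3% in RES and 20.7% in Ctrl in nonclassical monocytes.

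The difference between the libraries was largest in cDC1 (-2.94 percentage points, on 33 RES and 51 Ctrl cells) and in nonclassical monocytes, the patrolling subset (-2.44, interval -2.51 to -2.37, on 584 RES and 296 Ctrl cells). B cells (-2.27, on 92 RES and 97 Ctrl cells) and cDC2 (-2.22, on 174 RES and 246 Ctrl cells) were close behind. Classical monocytes differed by -0.75 points and macrophages by -0.081, with an interval of -0.18 to 0.012. NK cells were the 1 class of the 7 with a higher share in RES, by 0.68 points (interval 0.63 to 0.72, on 1486 RES and 1579 Ctrl cells).

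In nonclassical monocytes the lower share went with fewer ribosomal protein UMIs per cell and more of the rest. The median cell had 928 member UMIs in RES and 975 in Ctrl, and 4174 other UMIs in RES and 3700.5 in Ctrl. The means were 1153 member UMIs in RES and 1269 in Ctrl, and 5154 other UMIs in RES and 4856 in Ctrl. In B cells the median and the mean cell differed in sign for the members. The median cell had 1915 member UMIs in RES and 2160 in Ctrl, and 4862.5 other UMIs in RES and 4100 in Ctrl, while the mean was 2658 member UMIs in RES and 2380.0 in Ctrl. Unsupervised clustering placed a shallow and a deep cluster with B cells, with medians of 3992 and 14538 UMIs. The overlap of these clusters with the B gate was not counted. In the other 5 classes the median cell of RES had more member UMIs as well as more other UMIs. The B class also carried macrophage marker RNA at 1832 CPM in RES and 1304 CPM in Ctrl, with all 10 markers seen, against 70.1 CPM in RES and 65.8 in Ctrl in NK cells. The part of that RNA in the B cell difference was not tested.

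Median depth was higher in RES in each of the 7 classes. The share increased with depth across the tertiles of both libraries in NK cells, classical monocytes and macrophages, but not in both libraries of any other class, and in B cells it was lowest in the highest tertile. NK cells had a median of 4078 UMIs in RES and 3304 in Ctrl. When NK cells were split at depth limits common to both libraries, the lowest tertile had 17.1% in RES and 18.4% in Ctrl, the middle one 19.6% in RES and 21.5% in Ctrl, and the highest 25.6% in RES and 25.8% in Ctrl. RES was thus lower than Ctrl in each depth tertile of NK cells while higher in their sum, and the sum held 649 RES and 373 Ctrl cells in the highest tertile against 318 RES and 704 Ctrl cells in the lowest. Over the 7 classes and their depth tertiles RES was lower in 20 of 21 comparisons. The exception was the lowest tertile of macrophages, at 16.6% in RES and 15.3% in Ctrl. With limits set inside each library the count was 17 of 21. Bins were thin in cDC1, with 5 and 9 RES cells in the lowest and middle tertiles and 19 and 9 Ctrl cells in the middle and highest, and in the highest macrophage tertile, with 13 Ctrl cells.

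**Figure D2:**
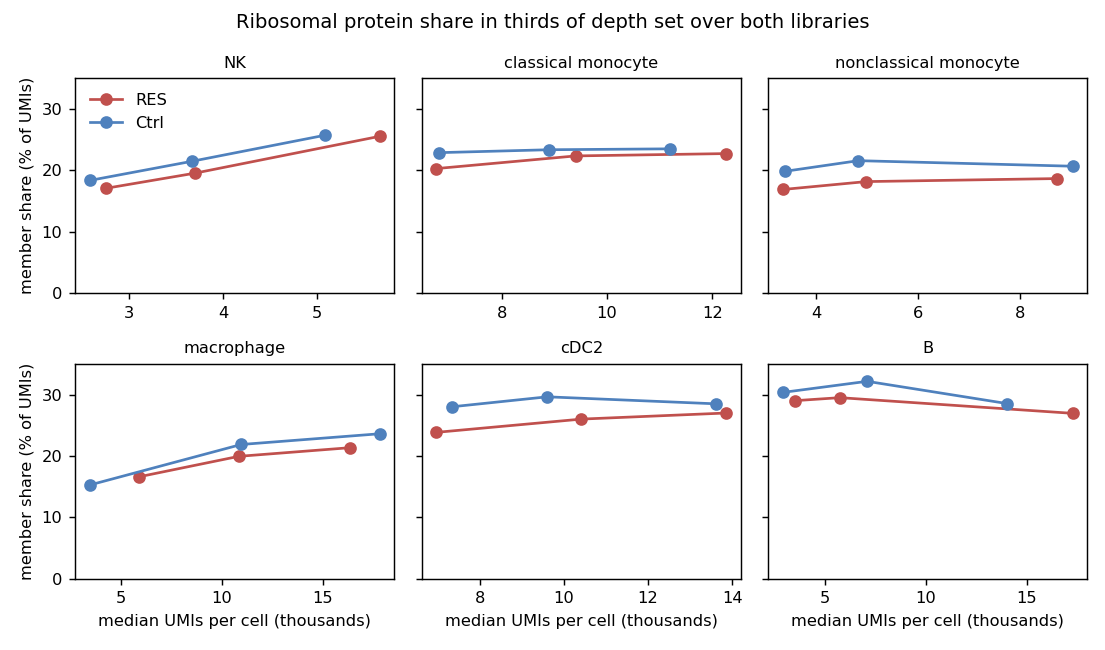
Ribosomal protein share of UMIs (vertical axis) against the median UMIs per cell (horizontal axis, in units of 1000 UMIs) in the 3 depth tertiles of 6 classes, with limits set over both libraries together, RES and Ctrl as separate lines. In NK cells the share climbs from 17.1% to 25.6% across the RES tertiles and from 18.4% to 25.8% across the Ctrl tertiles, and the RES points lie below Ctrl in all but the lowest macrophage tertile.

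Inside NK cells the share separated known subsets more than it separated the libraries. Cells with a UMI of Klrg1 or Cma1, genes of mature NK cells, and none of Ctla2a had 19.1% in RES and 19.8% in Ctrl. Cells with Ctla2a and neither of the others had 25.7% in RES and 24.2% in Ctrl, on 386 RES and 430 Ctrl cells. Cells with both kinds of UMI had 22.9% in RES and 22.9% in Ctrl. These subsets were chosen after the data were seen, and the deeper subset was also the one with the higher share (a median of 4777 UMIs in RES and 3808 in Ctrl, against 3630 in RES and 2929 in Ctrl for the Klrg1 or Cma1 cells). Cells with at least 1000 UMIs were also thinned to 1000. The Ctla2a cells then had 24.4% in RES and 23.3% in Ctrl, and the Klrg1 or Cma1 cells 18.3% in RES and 18.9% in Ctrl. Thinning weighs cells alike but leaves the expected share of each cell unchanged, so it cannot separate depth from subset. The part of depth in the gap between the subsets was not tested.

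In classical monocytes the cells with many interferon-induced UMIs (at least 10 per 10000) had 21.8% in RES, on 28 cells, and 21.2% in Ctrl, on 127 cells. The remaining classical monocytes had 22.4% in RES and 23.9% in Ctrl. RES was lower among cells below the limit by the sum, by the median cell and after thinning. Above the limit it was higher by the sum but not by the median cell (21.0% in RES and 21.4% in Ctrl) or after thinning to 1000 UMIs (20.7% in RES and 21.004% in Ctrl), so no direction held there. These subsets, too, were chosen after the data were seen.

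Clustering put most macrophages of the libraries in different clusters. Of the clusters that unsupervised clustering placed with macrophages, 1 held 704 RES and 15 Ctrl cells and the other 9 RES and 47 Ctrl cells. The macrophage gate drew other bounds, with 356 RES and 115 Ctrl cells, and its overlap with these clusters was not counted. C1q genes are known from resident macrophages, and Arg1 and Spp1 from macrophages recruited after injury. Within the macrophage gate the C1q-high cells had 19.6% in RES (50 cells) and 17.6% in Ctrl (62 cells). The Arg1 or Spp1 cells had 20.5% in RES (273 cells) and 24.0% in Ctrl (14 cells), and cells with neither had 21.6% in RES (33 cells) and 22.2% in Ctrl (39 cells). In 1.97% of RES macrophages and 20.9% of Ctrl macrophages the share was under 10%, and the median over cells was 19.6% in RES and 18.6% in Ctrl, the opposite direction to the sum. Median depth was 11687 UMIs in RES macrophages and 5837 in Ctrl macrophages. No direction for macrophages held across these ways of counting.

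The subunits differed between the libraries in like measure. Small subunit genes took 10.3% of all UMIs in RES and 11.1% in Ctrl, large subunit genes 10.8% in RES and 11.7% in Ctrl, and the P-stalk genes 1.038% in RES and 1.104% in Ctrl. The ratio of small to large subunit UMIs was 0.954 in RES and 0.949 in Ctrl. It varied more between classes than between libraries, from 0.903 in RES and 0.919 in Ctrl in NK cells to 1.03 in RES and 1.03 in Ctrl in nonclassical monocytes. The widest gap between the libraries was in macrophages, at 0.988 in RES and 0.944 in Ctrl. Of the P-stalk proteins, Rplp0, the scaffold of the stalk, was at 2820 CPM in RES and 2848 in Ctrl, Rplp2 at 3507 in RES and 3528 in Ctrl, and Rplp1 at 4055 in RES and 4666 in Ctrl.

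Gene by gene, the members differed little between the libraries. At a fold of 1.5 or more between the libraries, 1 of 81 members was higher in RES over all kept cells and none was lower. Of the 6223 genes tested there, 9.69% were past the fold, 6.06% higher and 3.63% lower. In NK cells 1 member was higher and none lower, against 1.51% of genes (0.823% higher and 0.689% lower). In classical monocytes 1 was higher and none lower, against 8.89% (4.54% higher and 4.35% lower), and in nonclassical monocytes 1 was higher and none lower, against 8.57% (6.21% higher and 2.37% lower). In macrophages 2 were higher and none lower, against 38.3% (18.8% higher and 19.5% lower), and in cDC2 none was past the fold either way, against 12.8% (7.74% higher and 5.09% lower). With 1 library per group these counts carry no p. The members' share was below the background in each comparison except NK cells, where it was near it. The background holds genes of all levels from 20 CPM, whereas most members are abundant and carry less counting error. The part of that in the gap between members and background was not tested.

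At the smaller fold of 1.2 the members still lay below the background in most directions, with the same limit of unlike levels. Over all kept cells 4 were higher and 2 lower (background 18% higher and 16.2% lower), in NK cells 4 and none (7.04% and 10.1%), in classical monocytes 3 and 1 (18.7% and 13.8%), and in cDC2 3 and 3 (23.6% and 20.3%). In macrophages 8 were higher and 6 lower (34.2% and 32.7%). Nonclassical monocytes were the exception, with 1 higher and 18 lower (24.1% and 11.9%). The median log2 ratio of RES over Ctrl over the members was -0.12 over all kept cells, 0.05 in NK cells, -0.04 in classical monocytes, -0.20 in nonclassical monocytes, -0.05 in macrophages and -0.12 in cDC2, while the median over all genes tested lay between -0.03 and 0.07. Over all kept cells 68 of 81 members were below 0, as were 71 in nonclassical monocytes, 69 in cDC2, 55 in classical monocytes, 47 in macrophages and 23 in NK cells. In macrophages the sign of the median depended on the scaling, since TMM, another scaling of the libraries, raised all log2 ratios there by 0.11.

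**Figure D3:**
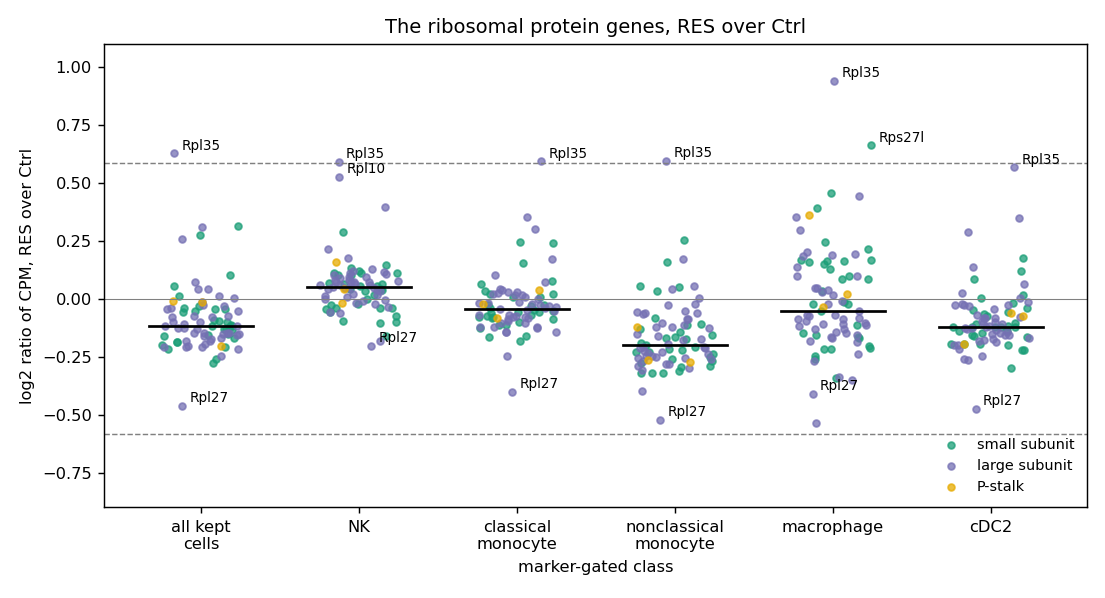
Log2 ratio of CPM, RES over Ctrl (vertical axis), of each of the 81 members over all kept cells and in 5 classes (horizontal axis), coloured by subunit, with the median as a black line and a 1.5-fold difference as dashed lines. Rpl35 stands at the top of each column (0.63 over all kept cells, 0.94 in macrophages) and Rpl27 is at or near the bottom (-0.46 over all kept cells), while the medians lie between -0.20 and 0.05.

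The member past the fold was Rpl35, a protein of the large subunit near the exit of the peptide tunnel (chr2:39001580-39005624, minus strand, GRCm38). It was at 903 CPM in RES and 585 CPM in Ctrl, a log2 ratio of 0.63 (interval 0.60 to 0.66) on 28878 RES and 11113 Ctrl UMIs. By class Rpl35 was at 672 CPM in RES and 446 in Ctrl in NK cells, 909 in RES and 603 in Ctrl in classical monocytes, and 792 in RES and 525 in Ctrl in nonclassical monocytes. In macrophages it was at 1063 CPM in RES and 553 in Ctrl, in cDC2 at 1117 in RES and 753 in Ctrl, in cDC1 at 980 in RES and 727 in Ctrl, and in B cells at 1185 in RES and 865 in Ctrl. The level was higher in RES in 7 of 7 classes, by log2 0.43 to 0.94. Apart from macrophages, which stood above cDC1 and classical monocytes in RES and below both in Ctrl, the classes had the same order in both libraries.

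Over all genes such uniformity was uncommon, as counted in the 5 classes with at least 100 cells per library. Of 4384 genes at the floor in each of NK cells, both monocyte classes, macrophages and cDC2, 37 were at least 1.2-fold higher in RES in all 5 (0.844%) and 19 were lower in all 5 (0.433%). Rpl35 was the 1 member among the 81 in the higher group, a share near that of all genes, and no member was in the lower one. The higher group held Arg1, Spp1 and Fn1, with Arg1 at least 3.20 higher (log2) in each of the 5 classes, NK cells included, and the lower group held Gbp2 of the interferon response and Rpl10-ps3, a copy of Rpl10 whose values follow further on. The part of free RNA shared by all droplets in such values was not tested. These names were taken after their values were seen.

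The member with the lowest ratio was Rpl27, also of the large subunit (chr11:101442298-101445529, plus strand, GRCm38), at 1070 CPM in RES and 1474 CPM in Ctrl, a log2 ratio of -0.46 (interval -0.48 to -0.44). It was lower in RES in 7 of 7 classes, from -0.20 in NK cells (1422 CPM in RES and 1636 in Ctrl) to -0.58 in cDC1 (1116 in RES and 1671 in Ctrl). Rpl27 did not reach the 1.5-fold limit in any of the 5 classes compared.

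The transcript starts of these genes, with the starts of the paralogs and class-specific members described further on, are shown because the TOP tract is the sequence feature that ribosomal protein transcripts are known for. Each line gives 40 bases before and 20 bases from the annotated start on the gene's strand (RefSeq, GRCm38.p6). Capitals mark the longest run of a C followed by C or T that begins within 10 bases of the start.
Rpl35 (chr2:39005112-39005171, minus): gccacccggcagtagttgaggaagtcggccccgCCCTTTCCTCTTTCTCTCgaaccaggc
Rpl27 (chr11:101442205-101442264, plus): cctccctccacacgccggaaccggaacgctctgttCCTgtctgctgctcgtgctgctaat
Rps27 (chr3:90213629-90213688, minus): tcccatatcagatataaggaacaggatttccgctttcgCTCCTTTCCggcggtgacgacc
Rps27l (chr9:66946046-66946105, plus): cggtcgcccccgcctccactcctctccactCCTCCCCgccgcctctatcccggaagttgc
Rpl22 (chr4:152324396-152324455, plus): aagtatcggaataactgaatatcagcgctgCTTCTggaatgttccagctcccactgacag
Rpl22l1 (chr3:28805468-28805527, plus): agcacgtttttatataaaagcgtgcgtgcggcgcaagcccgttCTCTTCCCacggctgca
Rpl7l1 (chr17:46782637-46782696, minus): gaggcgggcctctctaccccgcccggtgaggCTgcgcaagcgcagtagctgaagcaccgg
Rpl36al (chr12:69184048-69184107, minus): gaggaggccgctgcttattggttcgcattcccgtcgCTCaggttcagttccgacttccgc
Rps19 (chr7:24884552-24884611, plus): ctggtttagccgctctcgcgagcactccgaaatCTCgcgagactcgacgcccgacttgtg
Rpl12 (chr2:32961672-32961731, plus): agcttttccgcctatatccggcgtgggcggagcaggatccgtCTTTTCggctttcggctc

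The marked run was 18 bases long in Rpl35, 9 in Rps27, 8 in Rpl22l1, 7 in Rps27l, 6 in Rpl12, 5 in Rpl22, 3 in Rpl27, Rpl36al and Rps19, and 2 in Rpl7l1. In Rps27l the letters ct just before the capitals belong to the same run but lie outside the window. Annotated starts can lie some bases from the start used in these cells, and where a gene has several starts the most upstream is shown. The stretches shown for Rpl22 and Rpl27 end before the gene begins in the GENCODE vM21 annotation (chr4:152325742 and chr11:101442298). For Rpl22 a second start, nearer to the gene, is not shown. The table of starts held 61 of the 81 members with 72 starts. A C followed by at least 4 bases that are each C or T stood exactly at the start in 18.1% of the members' starts, against 2.51% of all 32851 starts. A C followed by at least 6 such bases began within 10 bases of the start in 40.3% of the members' starts, against 12.2% of all. In the 250 bases before to 50 bases after the start, the core letters CCGGAAG of ETS factor motifs, on either strand, were in 36.1% of the members' starts and 8.86% of all. These matches describe the annotated sequence, and a start without the run says nothing of what the transcript in these cells begins with.

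Several members have near-identical copies in the genome, and the part that the copy took differed between the libraries. Rpl10, which completes the large subunit late in its assembly, was at 2513 CPM in RES and 2029 in Ctrl (log2 0.31), and its annotated copy Rpl10-ps3 at 94.4 CPM in RES and 167 in Ctrl. The copy made up 3.62% of the pair's UMIs in RES and 7.60% in Ctrl. Over the 7 classes it ran from 3.33% to 4.30% in RES and from 7.14% to 7.92% in Ctrl, so it was nearly the same in every class of a library, and lower in RES in each. For Rpl27 and Rpl27-ps3 the direction was the opposite, with the copy at 6.90% of the pair in RES and 4.08% in Ctrl. The sum of gene and copy had a log2 ratio of 0.25 for Rpl10 and -0.42 for Rpl27 over all kept cells, so both kept their sign with the copy added. In macrophages Rpl10 was at 0.03 alone and at -0.02 with the copy. How the authors' counting shared reads between gene and copy was not tested, and single values of Rpl10, Rpl27, Rps27 and Rpl36a, which have such copies in the list of genes, are uncertain by that amount. Other members have annotated copies too, among them Rpl9-ps6 (24.3 CPM in RES and 29.9 in Ctrl over all barcodes), Rps12-ps3 (20.1 in RES and 15.9 in Ctrl), Rpl13a-ps1 (6.95 in RES and 5.25 in Ctrl) and Rpl7a-ps5 (3.14 in RES and 3.53 in Ctrl). Copies under symbols that do not name a member were not counted. The part of such copies in the values of Rpl35 and the other members was not tested.

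The other members named by their place at either end over all kept cells were closer to the rest. On the high side Rps27l stood at a log2 ratio of 0.32, Rps29 at 0.28 and Rpl7l1 at 0.26. Within classes Rps27l was higher in RES in 6 of 7 and Rpl7l1 in 4, and the part of the class mix in these ratios was not tested. On the low side were Rps21 at -0.28, Rps15a at -0.22 and Rpl30 at -0.22. Rps29, a zinc-binding protein of the small subunit, was at 4942 CPM in RES and 4084 CPM in Ctrl and was higher in RES in 7 of 7 classes (log2 0.16 to 0.39). In all, 4 members were higher in RES in all 7 classes (among them Rpl10, Rpl35 and Rps29) and 8 were lower in all 7 (Rpl27, Rpl28, Rpl36al, Rpl37, Rps15, Rps15a, Rps20 and Rps21). In macrophages the second member past the fold was Rps27l, at 615 CPM in RES and 389 in Ctrl (log2 0.66).

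Each member was also taken as percent of all member UMIs, the pool. Against this pool, Rpl35, Rpl38, Rpl5, Rps28, Rps29 and Rps3a1 were a larger part in RES in each of the 5 classes compared, and Rpl27, Rpl30, Rps15a and Rps21 a smaller part, with the counting interval clear of 0 each time. Rpl35 made up 0.408% of the pool in RES and 0.245% in Ctrl, and Rpl27 made up 0.483% in RES and 0.617% in Ctrl. Past the 1.5-fold limit in the pool there was 1 member over all kept cells (background 10.3%), none in NK cells (1.60%), 1 in classical monocytes (9.25%), 1 in nonclassical monocytes (14.3%), 2 in macrophages (38.3%) and 1 in cDC2 (14.4%).

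Among the 5 most abundant members were Rps24, Rps27a, Rpl23 and Rpl13. Rps27a, which is made as a fusion with ubiquitin, was at 5028 CPM in RES and 5189 in Ctrl. Rps24 was at 7987 CPM in RES and 9007 in Ctrl in B cells and at 4868 in RES and 5827 in Ctrl in nonclassical monocytes, its lowest class in RES. In Ctrl its lowest class was macrophages, at 5195 CPM there and 5120 CPM in RES. Each of the 5 had a log2 ratio between -0.18 and -0.05 over all kept cells.

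The classes differed in which members made up the pool, and they did so alike in both libraries. A member was counted when its part of the pool was at least 1.5-fold above or below the median of the 7 classes in both libraries. In NK cells these were Rpl22l1 (higher) and Rps19 (lower), 2 of 81 against a background of 33.9% of all genes tested in the same way. In nonclassical monocytes they were Rps27 (higher) and Rpl12 (lower), against 27.2%, in macrophages Rpl7l1 (higher), against 14.3%, and in B cells Rps27l (lower), against 15.7%. None passed in classical monocytes (14.1%), cDC1 (26.3%) or cDC2 (11.2%). The background holds genes of all levels, whereas most members are abundant, and the difference between them was not tested. These 6 names follow from their values. Over the classes the highest part of the pool was a median of 1.40 times the lowest in RES and 1.35 times in Ctrl. Rps27l had the widest range in RES, at 2.98 times, and 2.72 times in Ctrl. Rpl7l1 had the widest in Ctrl, at 2.90 times, and 2.29 times in RES.

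**Figure D4:**
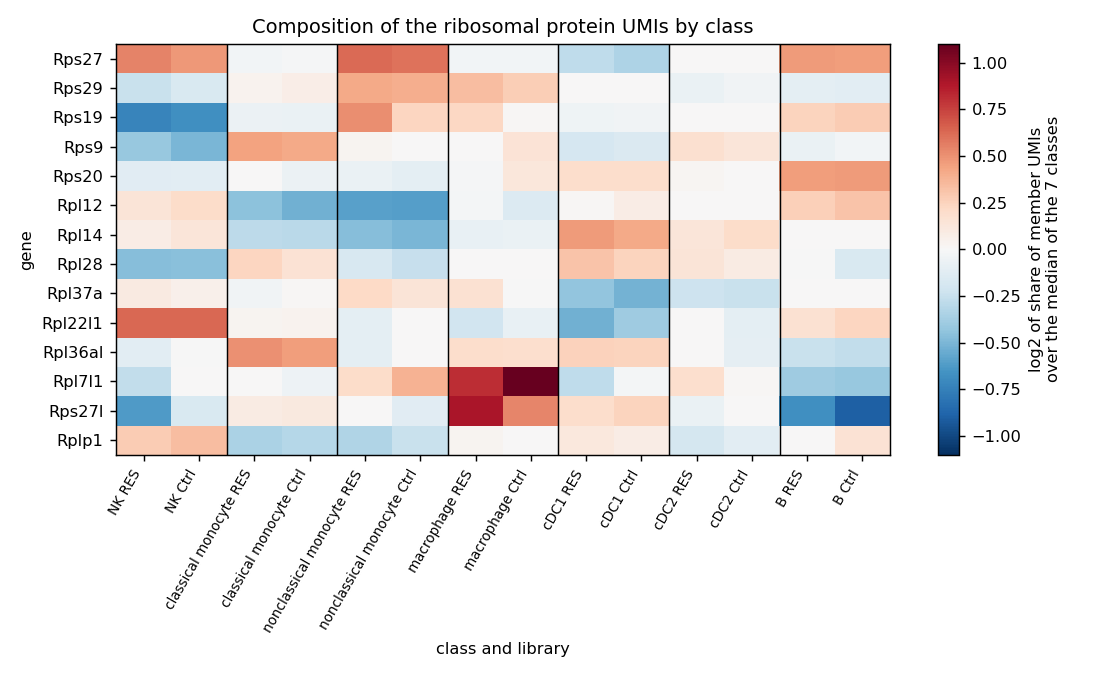
Share of single members in the ribosomal protein UMIs (rows), as log2 of that share over the median of the 7 classes (colour, red above and blue below), for each class and library (columns, RES left of Ctrl in each class). Columns of a class look alike in both libraries, with Rpl22l1 high and Rps19 low in NK cells, Rps27 high and Rpl12 low in nonclassical monocytes, and Rps27l and Rpl7l1 high in macrophages.

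Rps19, a small subunit protein whose human gene is mutated in Diamond-Blackfan anaemia, made up 0.868% of the NK pool in RES and 0.923% in Ctrl, against class medians of 1.43% in RES and 1.48% in Ctrl. In CPM it was at 1981 in RES and 2044 in Ctrl in NK cells and at 4709 in RES and 5383 in Ctrl in B cells. Rps27, a zinc-finger protein of the small subunit, made up 1.89% of the pool in RES and 1.87% in Ctrl in nonclassical monocytes, against medians of 1.23% in RES and 1.23% in Ctrl. It was also high in NK cells (1.80% in RES and 1.72% in Ctrl) and in B cells (1.70% in RES and 1.70% in Ctrl). Rpl12, which sits at the base of the P-stalk, made up 0.645% of the pool in RES and 0.636% in Ctrl in nonclassical monocytes and 0.714% in RES and 0.672% in Ctrl in classical monocytes, with class medians of 0.975% in RES and 0.968% in Ctrl. Both monocyte classes were thus low in Rpl12 and in Rplp1, which was at 1.51% of the pool in RES and 1.54% in Ctrl in classical monocytes against medians of 1.91% in RES and 1.91% in Ctrl.

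Smaller shifts of the same kind marked the other classes. Rps9, of the small subunit, made up 2.51% of the pool in RES and 2.62% in Ctrl in classical monocytes, with medians of 1.85% in RES and 1.97% in Ctrl. Rpl14 made up 0.903% in RES and 0.834% in Ctrl in cDC1, against 0.469% in RES and 0.440% in Ctrl in nonclassical monocytes. Rpl37a was low in cDC1, at 1.39% in RES and 1.45% in Ctrl, with medians of 1.88% in RES and 2.08% in Ctrl. Rps20 was high in B cells, at 1.96% in RES and 2.07% in Ctrl against medians of 1.42% in RES and 1.496% in Ctrl. Rpl28 was low in NK cells, at 0.836% in RES and 0.881% in Ctrl against 1.16% in RES and 1.21% in Ctrl.

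The paralogs are second copies of a ribosomal protein gene with a diverged sequence, and Rps27l and Rpl7l1 had the widest ranges between classes given above. Libraries of this kind tag 1 end of each transcript, so the values of a pair are compared per molecule and not per length. Rps27l, which human cells are known to induce through p53, made up 20.01% of the pair with Rps27 in RES macrophages and 13.5% in Ctrl macrophages. In cDC1 it was 15.4% in RES and 13.7% in Ctrl, in classical monocytes 12.4% in RES and 10.3% in Ctrl, and in cDC2 11.1% in RES and 9.55% in Ctrl. Nonclassical monocytes had 7.86% in RES and 5.99% in Ctrl, B cells 5.60% in RES and 3.94% in Ctrl, and NK cells 5.51% in RES and 6.32% in Ctrl. The part of Rps27l was higher in RES in 6 of 7 classes, and in cDC1 the intervals of the libraries overlapped (13.8% to 17.2% in RES and 12.2% to 15.3% in Ctrl).

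Rpl22l1, the paralog that mouse cells raise when Rpl22 is missing, made up 27.9% of the pair with Rpl22 in RES NK cells and 28.8% in Ctrl NK cells, the highest of the classes. The lowest was cDC1, at 13.03% in RES and 14.1% in Ctrl. Rpl36al made up 51.3% of the pair with Rpl36a in RES classical monocytes and 53.4% in Ctrl, and 32.9% in RES B cells and 35.3% in Ctrl. Rpl36al overlaps a second annotated protein-coding gene on its strand, as do 3 other members, so its level is uncertain. Rpl7l1, a low paralog of Rpl7, was at 86.3 CPM in RES macrophages and 87.7 CPM in Ctrl macrophages. It was next highest in cDC2, at 72.8 CPM in RES and 57.1 in Ctrl, and in the other 5 classes between 45.5 and 54.0 CPM in RES and between 43.5 and 55.1 CPM in Ctrl.

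**Figure D5:**
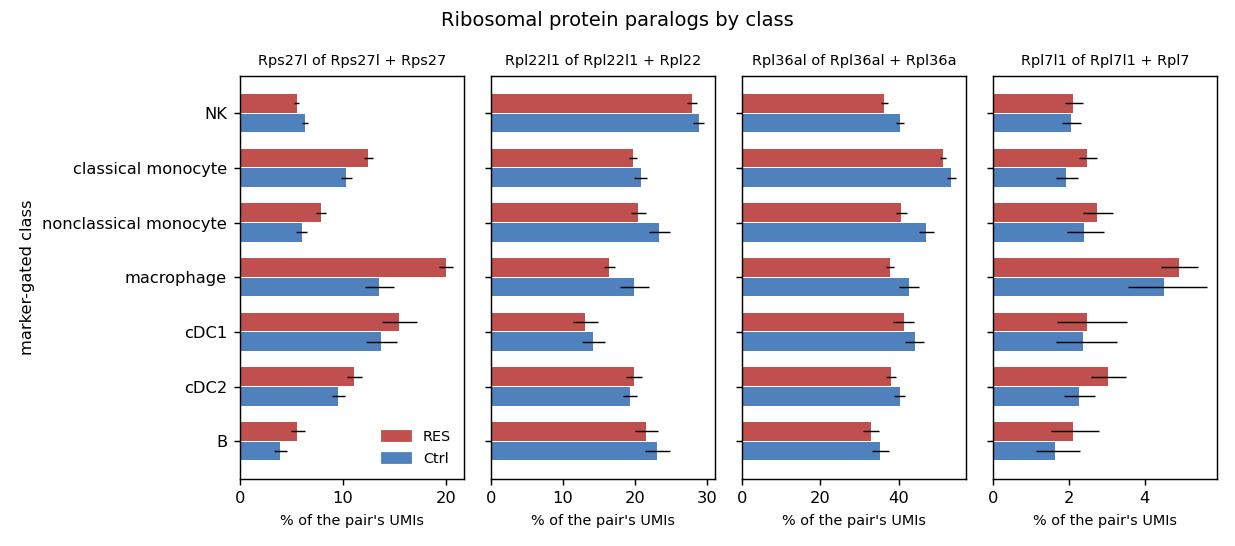
Paralog UMIs as percent of the UMIs of the paralog and its partner (horizontal axis) in 7 classes (vertical axis), RES above Ctrl in each pair, with exact binomial intervals as error bars. Rps27l peaks in macrophages at 20.01% in RES and 13.5% in Ctrl, Rpl22l1 in NK cells at 27.9% in RES and 28.8% in Ctrl, and Rpl36al in classical monocytes at 51.3% in RES and 53.4% in Ctrl.

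Among the genes left out by the floor, Rpl3l had a class of its own. Rpl3l is known as the striated-muscle form of Rpl3 in mice. It was at 62.7 CPM in RES and 43.6 CPM in Ctrl in nonclassical monocytes, with a UMI in 27.1% of RES cells and 18.9% of Ctrl cells. In classical monocytes it was at 4.44 CPM in RES and 2.78 in Ctrl, in macrophages at 2.72 in RES and 3.55 in Ctrl, and in NK cells at 0.149 in RES and 0.348 in Ctrl, with a UMI in 0.0673% of RES and 0.127% of Ctrl NK cells. No UMI fell on it in 33 RES and 51 Ctrl cDC1 cells or in 92 RES B cells, which allows shares of cells with a UMI of up to 9.09%, 5.88% and 3.26%. These limits are not on the cells that express the gene. Msrb1, the next gene downstream on the same strand, begins 499 bases after Rpl3l ends. It was at 1061 CPM in RES and 1092 in Ctrl in nonclassical monocytes and at 1074 in RES and 911 in Ctrl in classical monocytes, and so did not share the pattern between the monocyte classes. Even in nonclassical monocytes Rpl3l was 4.88% of the pair with Rpl3 in RES and 2.99% in Ctrl.

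The 81 members lie on 19 chromosomes, with at most 14 on 1 chromosome (GENCODE vM21, GRCm38), and 35 overlap another annotated gene on the same strand, 4 of them a protein-coding gene.

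Ribosomal proteins that the symbols miss were also lower in RES over all kept cells. Fau, whose small subunit protein is made as a fusion with a ubiquitin-like protein, was at 6427 CPM in RES and 7511 in Ctrl (log2 -0.22). Rack1, a scaffold on the small subunit, was at 1930 CPM in RES and 2033 in Ctrl (log2 -0.08). Fau was lower in RES in each of the 5 classes compared.

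Genes of translation outside the ribosome had medians on either side of 0, and their difference from the members was not tested. Among elongation factors and their partners 8 of 9 were tested over all kept cells, none was past 1.5-fold, and their median log2 ratio was 0.11. Eif5a was the highest of them, at 484 CPM in RES and 367 in Ctrl (log2 0.40), and Eef1d the lowest, at 261.1 in RES and 289 in Ctrl (log2 -0.15). Eef1a1, which brings aminoacyl-tRNA to the ribosome and is itself a TOP transcript, was at 4822 CPM in RES and 4342 in Ctrl (log2 0.15), a gene named after its value was seen. All 25 initiation genes were tested with none past the fold and a median of 0.08, from Eif4e, the cap-binding protein (log2 0.47), to Eif3f (log2 -0.21). Of the 24 genes of ribosome biogenesis 19 were tested with none past the fold and a median of 0.02, and of the 78 genes of the mitochondrial ribosome 67 were tested with none past the fold and a median of -0.00. The same held for 6 genes of RNA polymerase I and nucleolar regulation (median -0.02) and 8 of ribosome quality control (-0.05). It also held for a mixed list of 6 genes, among them Hnrnpa1, Nap1l1, Npm1 and Tomm20 (-0.02). The 3 snoRNA host genes whose transcripts are known TOP transcripts had a median of -0.24, with Snhg12 at 26.7 CPM in RES and 35.4 in Ctrl and Snhg6 at 46.8 in RES and 41.4 in Ctrl.

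In the list of growth control of translation 10 of 17 genes were tested and 1 was past the fold. This was Eif4ebp1, the repressor of cap-dependent initiation that mTORC1 inactivates. Over all kept cells it was at 132 CPM in RES and 71.8 CPM in Ctrl (log2 0.88, interval 0.79 to 0.97). By class it was at 192 CPM in RES and 126 in Ctrl in macrophages, 111 in RES and 71.6 in Ctrl in cDC2, 168 in RES and 121 in Ctrl in classical monocytes, and 173 in RES and 127 in Ctrl in nonclassical monocytes. In NK cells it was at 21.0 CPM in RES and 17.2 in Ctrl, with an interval of the log2 ratio (-0.10 to 0.67) that includes 0. The part of the class mix in the ratio over all kept cells was not tested. Larp1, which binds TOP transcripts, was at 90.2 CPM in RES and 101 in Ctrl (log2 -0.16), and Myc, a transcription factor that drives ribosome synthesis, at 20.8 in RES and 15.7 in Ctrl (log2 0.41).

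In macrophages the medians of the initiation and biogenesis genes were above 0. Of 25 initiation genes 7 were higher in RES and 1, Eif3m, was lower, with a median log2 ratio of 0.47, and of 22 biogenesis genes tested 6 were higher and 1, Dkc1, was lower, with a median of 0.32. The background there was 38.3% either way, so these counts are below or near it. Eif5a was at 721 CPM in RES macrophages and 309 CPM in Ctrl macrophages. The members in the same cells had a median of -0.05, with 2 of 81 past the fold. TMM scaling raised all macrophage log2 ratios by 0.11, so the sign of the members' median depends on the scaling. The gated macrophages compared differed in their subsets between the 2 libraries, as given above, and the part of that in these values was not tested.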

How the data were processed

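Per the labels' protocols, cells of 5 mice were pooled per library, sorted, and made into 10x 3′ libraries. The authors deposited raw UMI counts per gene and barcode, with no normalization, from Cell Ranger 3.1.0 per the file headers and the mm10 build per the submitters' processing notes. The annotation used for counting is not given in the sources used here. A barcode was kept if it showed 200 or more genes and no more than 10% of its UMIs came from mitochondrial genes, and the highest Scrublet doublet scores (0.8% per 1000 barcodes) were left out, which removed 146 RES and 109 Ctrl barcodes after 121 RES and 245 Ctrl barcodes had failed the other limits. Doublets can remain.

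A cell's score for a class was the mean of log(1 + UMIs per 10000) over its markers, divided by a limit (1.0 for NK cells, 0.5 for cDC2, 0.9 for the rest), and the top score had to reach 1 and be 1.2 times the next. These limits were set after marker levels, not member levels, were seen. UMIs were summed per class and library and given as a share or as CPM. Clopper-Pearson and conditional binomial intervals (95%) came from scipy 1.17.1, clusters from scanpy 1.11.5 and TMM factors from edgeR 4.0.16. Where no UMI was seen, 3 counts served as the upper limit. Folds were compared in classes with at least 100 cells per library, and a gene was called at 1.5-fold.

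Named members were the 6 highest and 6 lowest over all kept cells (with 10 CPM added), the 5 most abundant, the paralogs, and per class the 2 highest and 2 lowest in pool share in both libraries. From each companion list the 2 highest and 2 lowest genes could be named. Some genes that these rules name are not reported here. The members, lists and rules were chosen with earlier results of these data known. Alternatives were other cell filters, gates, clusters, scalings, denominators and depths. The ratios and intervals were tested on simulated data. Sequences are from RefSeq (GRCm38.p6).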

Additional observations from a re-analysis of the deposited data

Results flagged for a closer look

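The difference in ribosomal protein share between RES and Ctrl had different signs and sizes in the classes, which is why each is listed here. It was 0.68 percentage points (RES minus Ctrl) in NK cells, -0.75 in classical monocytes, -2.44 in nonclassical monocytes, -0.081 in macrophages, -2.94 in cDC1, -2.22 in cDC2 and -2.27 in B cells. With 1 library per group the differences between classes were not tested. Median depth per cell was 4078 UMIs in RES and 3304 in Ctrl in NK cells, and 5044.5 UMIs in RES and 4662.5 in Ctrl in nonclassical monocytes. At depth limits common to both libraries the NK difference had the other sign.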

How the results depend on the processing

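No paired analysis was possible because each group is 1 library. The share difference (RES minus Ctrl, percentage points) kept its sign under every alternative run in classical monocytes, nonclassical monocytes, cDC1, cDC2, B cells and all kept cells, turned in NK cells under 1 and was above 0 for macrophages in 6 of 12 counts, and the cause was not tested. The 2 depth alternatives, chosen after seeing the data, average the differences within depth tertiles. With limits over both libraries they gave -1.13 in NK cells, -1.46 in classical monocytes, -2.80 in nonclassical monocytes, -0.947 in macrophages, -2.44 in cDC1, -3.10 in cDC2, -1.87 in B cells and -2.19 over all kept cells. With limits in each library they gave 0.453, -0.803, -2.63, 2.35, -2.67, -2.11, -2.03 and -1.15 in the same order. Thinning to 1000 UMIs left out 53 RES and 106 Ctrl cells with fewer UMIs, and 97 of 115 Ctrl macrophages remained. It weighs cells alike and leaves the expected share of each cell unchanged. Thinned to 1000 UMIs the values were 0.347, -1.05, -2.64, 1.92, -3.48, -1.64, -1.77 and -1.25. Without the 50 highest other genes in the denominator they were 0.899, -1.098, -3.16, -0.363, -3.33, -2.57, -2.77 and -2.24. The mean over cells gave 0.517 in NK cells, -0.856 in classical monocytes, -2.81 in nonclassical monocytes, 2.46 in macrophages, -1.73 in cDC2, -2.12 in B cells and -1.14 over all kept cells. Leiden clusters gave 0.523 in NK cells, -0.342 in classical monocytes, -2.23 in nonclassical monocytes, 3.80 in macrophages, -2.04 in cDC2 and -2.65 in B cells. Stricter gates gave 0.590, -0.865, -2.33 and 0.853 in NK cells, both monocyte classes and macrophages, -2.03 in cDC1, -2.02 in cDC2 and -2.75 in B cells. All deposited barcodes gave 0.155 in macrophages, -2.44 in cDC1, -1.87 in cDC2, -1.99 in B cells and -1.60 over all kept cells. A mitochondrial limit of 5% gave 0.628 in NK cells, -0.797 in classical monocytes, -2.37 in cDC2, -1.67 in B cells and -1.76 over all kept cells, and keeping doublets 0.617, -0.799, -2.13, -2.11 and -1.77.

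The highest class over the lowest was 1.47 in RES and 1.76 in Ctrl by clusters, and 1.59 in RES and 1.71 in Ctrl after thinning. Clusters put cDC2 first in RES and cDC1 first in Ctrl. At a fold of 1.2 the members past the limit were 6 over all kept cells, 4 in NK cells, 4 in classical monocytes, 19 in nonclassical monocytes (18 of them lower), 14 in macrophages and 6 in cDC2. At 1.5-fold, Rpl35 lies at the limit, and the count became 0 in NK cells with all barcodes, thinning or clusters, 0 in classical monocytes with TMM or thinning, and 0 in nonclassical monocytes with TMM, size factors, thinning or clusters. In macrophages it became 4 with thinning or clusters, and in cDC2 1 with clusters. Relative to the pool it became 0 in classical monocytes and cDC2 with thinning and 1 in macrophages with clusters. TMM moved all log2 ratios of macrophages by 0.11, and the ratios of Rps27a, Rps19 and Rps6 over all kept cells turned slightly above 0 under both scalings (0.01, 0.02 and 0.01 with TMM). Rpl7l1 turned to -0.12 with thinning. Counting error is small at this depth, and the single library per group is the limit.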
